A study of Homo sapiens with 4 samples.

Results

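Copying the genome before each division needs a set of proteins that cells make mostly at the passage from G1 into S phase. Origins of replication are licensed when the origin recognition complex, CDC6 and CDT1 load the ring-shaped MCM2 to MCM7 helicase onto DNA, and they fire when CDC45 and the GINS complex join that ring and polymerases follow. Most of these genes are transcribed by E2F factors, which the retinoblastoma protein RB1 holds inactive until cyclin-dependent kinases phosphorylate it. The 39 genes described here are E2F factors with RB1 and the DNA replication genes. They were chosen by name from the table of gene expression and not by their values, though earlier results of these data were known. All 39 were listed among the 17755 genes of the table. They comprise 6 genes for E2F factors and RB1, 10 origin licensing genes, 8 genes of helicase activation and the fork, 11 genes of polymerases, clamp and clamp loader, and 4 genes of nucleotide supply.

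LINC00622, a long non-coding RNA, was knocked down by siRNA (siLINC00622) in the human melanoma cell lines SK-MEL-28 and A375, and a control siRNA (siNC) was given to the same lines. Cells received siRNA for 6 h without serum and then grew for 24 h in medium with 10% serum, which all 4 groups share. RNA-Seq was run on 1 library per condition, 4 libraries in all, so a difference between siLINC00622 and siNC within a line has no replicate check. No normal melanocytes are among the 4 libraries, and the labels do not name which of the designed siRNAs was transfected.

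Library totals ran from 31269923 to 36384819 counts. Counts of the targeted RNA were 309 (siNC) and 135 (siLINC00622) in SK-MEL-28, with 135 and 86 in A375. The effective library size of the siLINC00622 library exceeded that of siNC on the log2 scale, by 0.03 for SK-MEL-28 and by 0.21 for A375, so an equal count in A375 is a lower level with siLINC00622. Markers of the melanocyte lineage were listed for 8 of 8 genes, with a summed level of 2061 and 2210 FPKM in SK-MEL-28 cells and of 133 and 166 FPKM in A375. Most of the A375 sum was SOX10, at 118 and 149 FPKM there and at 153 and 150 in SK-MEL-28 cells. Among the other markers S100B was highest in A375, at 5.54 and 8.40 FPKM, and PMEL was at 2.24 and 2.35. Of 3 endothelial markers none was listed, of 5 immune markers 1 (LYZ), of 6 fibroblast markers 1 (LUM) and of 5 keratinocyte markers 2 (KRT10 and KRT14). Bulk libraries cannot tell fewer cells in S phase from less RNA of these genes per cell.

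The promoters of the members are shown first, because E2F binding sites are the feature that this gene set is known for. RefSeq promoter windows of 300 bases (250 before the annotated start and 50 from it on, GRCh38.p14) were given for 35 of the 39 members. MCM4, MCM5, GINS4 and E2F8 had no window. Only the first window given for a gene was used, and it need not lie at the main start of the gene. The RB1 window (chr13:48476200-48476499) had the lowest GC content of the members, 38.3%, and was not checked against the main RB1 start. RB1 is counted below among windows without an E2F word. An E2F word was any of TTTCCCGC, TTTCGCGC, TTTGCCGC and TTTGGCGC on either strand. At least 1 such word lay in 20 of the 35 member windows (57.1%), against 3.33% of the 27305 windows of the table. Member windows are richer in GC than others, with a median of 65.0% against 58.3%. Among windows with a GC content of at least 65%, a limit added after seeing the data, 12 of 18 member windows held a word (66.7%) against 5.04% of 8853 windows. Of the 35 windows, 32 hold the first 20 bases of a transcript of their gene in GENCODE 29. The windows below carry the E2F words in capitals, which on the strand of the gene read as one of these words or as its reverse complement. E2F1 lies on the minus strand (chr20:33686336-33686635), as does E2F2 (chr1:23531184-23531483). MCM6 is on the minus strand (chr2:135876394-135876693) and UHRF1 on the plus strand (chr19:4909251-4909550). RRM2 (plus strand, chr2:10122489-10122788) and ORC1 (minus strand, chr1:52404374-52404673) are shown as windows with none of these words. E2F1 was chosen as the first-known factor of the family, E2F2 and UHRF1 as the members that passed the test of the treatment, MCM6 as the window with most words, RRM2 as the member with most counts in both siNC libraries, and ORC1 as the member whose values differed in direction between the lines.

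E2F1: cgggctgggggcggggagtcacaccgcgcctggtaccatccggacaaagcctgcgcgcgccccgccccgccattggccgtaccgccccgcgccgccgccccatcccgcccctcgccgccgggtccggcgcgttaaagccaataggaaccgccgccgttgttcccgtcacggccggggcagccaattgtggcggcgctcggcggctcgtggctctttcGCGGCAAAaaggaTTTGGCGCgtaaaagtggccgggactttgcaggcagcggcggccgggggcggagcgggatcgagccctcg

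E2F2: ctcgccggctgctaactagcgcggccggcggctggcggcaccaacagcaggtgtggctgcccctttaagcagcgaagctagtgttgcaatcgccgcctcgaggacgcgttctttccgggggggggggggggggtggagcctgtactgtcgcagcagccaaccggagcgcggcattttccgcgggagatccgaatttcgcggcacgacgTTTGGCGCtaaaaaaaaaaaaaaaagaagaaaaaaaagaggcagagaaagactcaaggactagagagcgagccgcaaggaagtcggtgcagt

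MCM6: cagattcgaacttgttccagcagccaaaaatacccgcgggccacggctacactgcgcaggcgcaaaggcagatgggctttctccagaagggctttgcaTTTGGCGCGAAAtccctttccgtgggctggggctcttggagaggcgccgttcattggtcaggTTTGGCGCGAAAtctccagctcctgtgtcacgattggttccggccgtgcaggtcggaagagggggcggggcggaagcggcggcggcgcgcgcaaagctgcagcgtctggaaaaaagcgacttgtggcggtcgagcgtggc

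UHRF1: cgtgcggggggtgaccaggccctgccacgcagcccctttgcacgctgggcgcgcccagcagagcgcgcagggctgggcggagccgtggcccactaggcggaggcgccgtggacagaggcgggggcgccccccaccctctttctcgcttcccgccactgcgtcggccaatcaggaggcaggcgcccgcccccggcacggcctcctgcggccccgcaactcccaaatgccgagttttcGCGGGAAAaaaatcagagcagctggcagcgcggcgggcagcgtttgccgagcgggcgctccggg

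RRM2: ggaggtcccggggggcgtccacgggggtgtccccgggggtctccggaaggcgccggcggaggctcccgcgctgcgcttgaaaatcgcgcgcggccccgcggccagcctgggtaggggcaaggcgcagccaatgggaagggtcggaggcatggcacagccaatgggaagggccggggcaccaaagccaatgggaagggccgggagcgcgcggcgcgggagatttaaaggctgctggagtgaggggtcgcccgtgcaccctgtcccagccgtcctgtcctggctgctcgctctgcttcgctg

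ORC1: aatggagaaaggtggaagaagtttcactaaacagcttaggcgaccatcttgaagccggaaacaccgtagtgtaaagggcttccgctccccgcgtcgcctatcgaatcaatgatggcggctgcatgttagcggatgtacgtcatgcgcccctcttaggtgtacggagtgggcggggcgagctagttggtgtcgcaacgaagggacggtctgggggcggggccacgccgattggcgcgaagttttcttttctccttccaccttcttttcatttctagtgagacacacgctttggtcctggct

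Position 0 is the annotated start. E2F1 has GCGGCAAA at -33 to -26 and TTTGGCGC at -20 to -13, and E2F2 has TTTGGCGC at -42 to -35. UHRF1 has GCGGGAAA at -14 to -7. MCM6 holds 4 words in 2 overlapping pairs, from -152 to -141 and from -90 to -79, where TTTGGCGC and GCGCGAAA share 4 bases. Over the members 27 words were found in 20 windows, and 19 of them in 17 windows lay between -60 and 20, a range chosen after the positions were seen. TTTCCCGC or its reverse complement was the most frequent, with 12 matches in 12 members. CCAAT, the word bound by the factor NF-Y, lay on either strand in 22 of 35 member windows (62.9%) against 35.7% of all windows. TTTGAA, the core of the CHR element of late cell cycle genes, lay in 2 of 35 (5.71%) against 15.4%. Among windows with a GC content of at least 65%, CCAAT lay in 11 of 18 member windows (61.1%) against 27.7%. TTTGAA lay in 0 of 18 of these against 3.65%. The share of all windows with TTTGAA was thus lower at high GC, and 0 of 18 is near it. A match is a run of letters in the window and was not tested as a binding site, and a window without one says only that these letters are absent from it.

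Levels with siNC were ordered per length, as deposited FPKM. PCNA, the sliding clamp that holds polymerases on DNA, had the highest level in both siNC libraries, 192 FPKM in SK-MEL-28 cells and 212 in A375. MCM7, a subunit of the replicative helicase, came next with 104 and 109 FPKM, and FEN1, the flap endonuclease of Okazaki fragment maturation, followed with 77.1 and 107. At the other end, GINS3 had 3.50 FPKM in SK-MEL-28 cells and GINS4 had 3.81 in A375. The members thus spanned 2.13 to 212 FPKM over the 4 libraries, with counts between 267 and 17874, so none was near the minimum of 10 counts. Across the 39 members the log2 FPKM of the siNC libraries of the lines were related with Pearson r = 0.904 and Spearman rho = 0.867, a description over genes that share the 2 libraries and their lengths. With 1 library each, neighbours in this order could not be told apart beyond their spread.

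**Figure D1:**
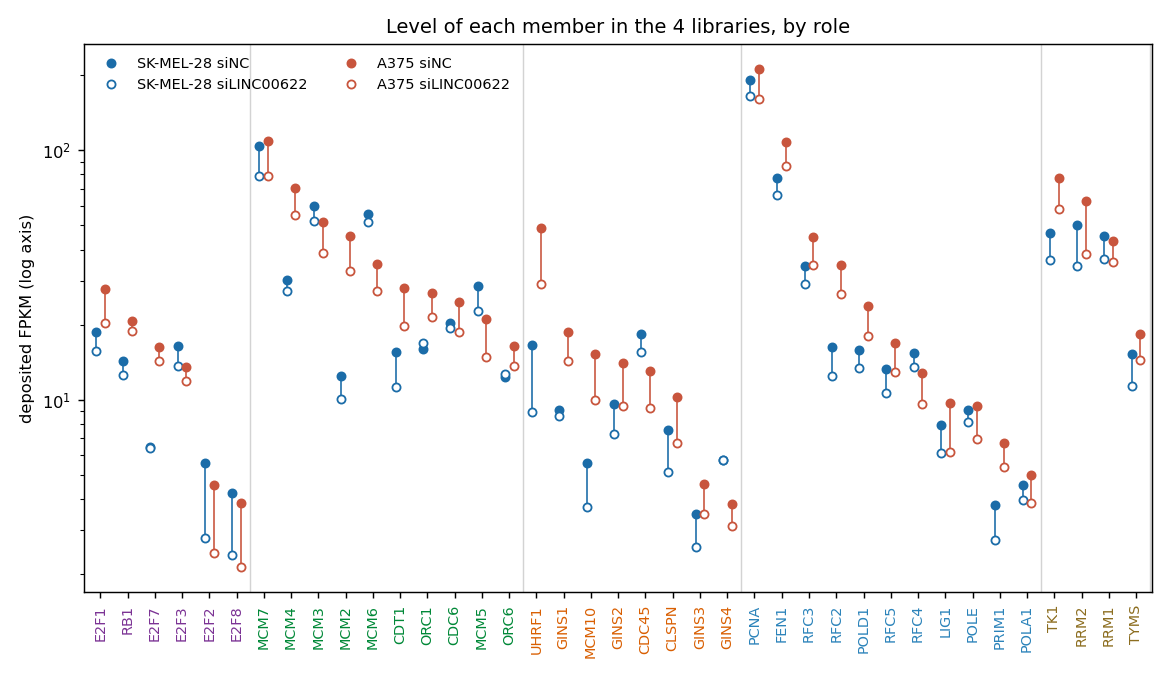
Deposited FPKM of each member (log axis) in the 4 libraries, grouped by role (colour of the gene name). Filled points are siNC and open points siLINC00622, blue for SK-MEL-28 and red for A375, and a line joins the pair of a cell line; PCNA is highest and the open points lie below the filled ones for most members.

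The first comparison asked how the members' levels with siLINC00622 compared with siNC in each line. Each value is a log2 ratio, siLINC00622 over siNC, of TMM-scaled counts with a prior count of 2, with a 95% Clopper-Pearson interval that covers counting error only. The median over the 39 members was -0.25 in SK-MEL-28, a change of -15.8%, and -0.39 in A375, a change of -23.6%, while the median over all genes was -0.0040 and 0.0043. In SK-MEL-28, 33 of 39 members had an interval below 0, against 24.0% of 15442 genes, and 1 of 39 had an interval above 0, against 22.9%. In A375, 39 of 39 had an interval below 0, against 22.0% of 16021 genes, and 0 of 39 had one above 0, against 23.8%. In both lines 33 of 39 were below 0, against 11.9% of 14721 genes. Among the 8821 genes with at least 267 counts in every library, the lowest count of a member, these shares were 31.2% in SK-MEL-28, 29.8% in A375 and 16.9% in both. Narrow intervals at high counts make small ratios pass, so the sizes are given for each. Past 1.5-fold lower were 3 of 39 members in SK-MEL-28 (6.49% of all genes, 3.06% of the 8821), 7 of 39 in A375 (4.34% and 1.02%) and 3 of 39 in both (1.09% of all genes). Past 1.5-fold higher were 0 of 39 in each line, against 4.56% of genes in SK-MEL-28 cells and 4.52% in A375. The members were thus mostly lower by a small amount.

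**Figure D2:**
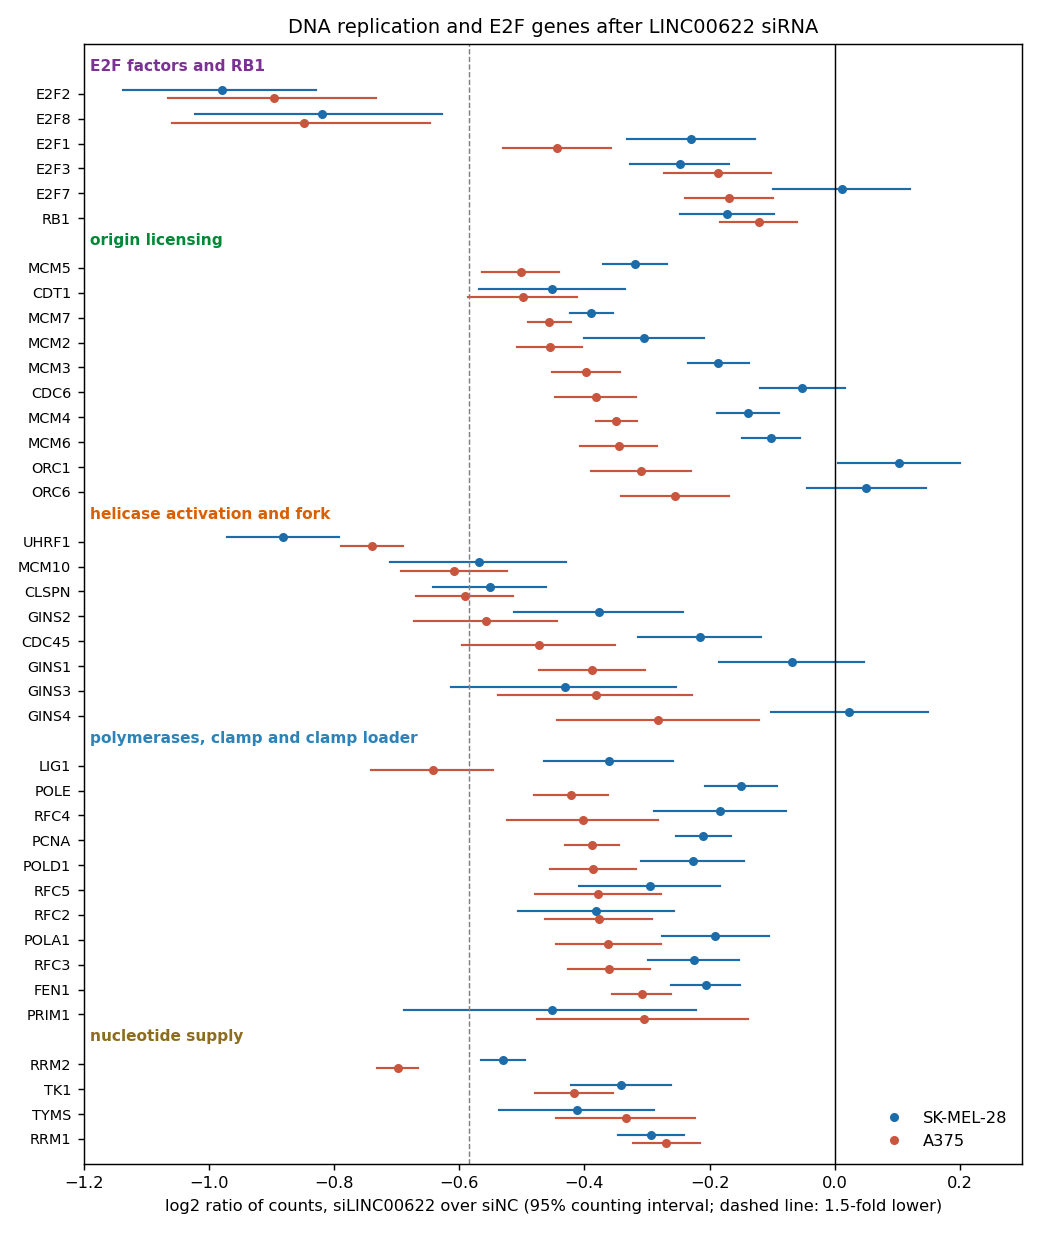
Log2 ratio of siLINC00622 over siNC for each of the 39 members (points) with its 95% counting interval (bars), blue for SK-MEL-28 and red for A375, grouped by role and ordered within a role by the A375 value. The solid line marks no difference and the dashed line 1.5-fold lower; E2F2, E2F8 and UHRF1 lie left of the dashed line in both lines, and ORC1 lies right of the solid line in SK-MEL-28.

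Taken by role, the E2F factors and RB1 were split. E2F2, an activator E2F, had 1013 siNC counts and 524 siLINC00622 counts in SK-MEL-28 cells and 779 and 483 in A375. Its log2 ratio was -0.98 (-1.14 to -0.83) in SK-MEL-28 cells and -0.90 (-1.07 to -0.73) in A375, the lowest of all members in both lines. E2F8, a repressor that is itself a target of E2F, had 582 and 336 counts in SK-MEL-28 cells and 501 and 321 in A375, with ratios of -0.82 (-1.02 to -0.63) and -0.85 (-1.06 to -0.65). Both genes were lower past 1.5-fold with siLINC00622 in each line. E2F1, another activator, was at 1659 and 1446 counts in SK-MEL-28 cells and 2347 and 1995 in A375, with ratios of -0.23 and -0.44. E2F3, also an activator, had -0.25 and -0.19, and RB1 had -0.17 and -0.12, the smallest difference of a member in A375. E2F7, the partner of E2F8 in repression, had 1343 and 1383 counts in SK-MEL-28, a ratio of 0.01 (-0.10 to 0.12), and -0.17 (-0.24 to -0.10) in A375. The group median was -0.24 in SK-MEL-28 cells and -0.32 in A375, and 2 of 6 genes passed 1.5-fold in each line.

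For the origin licensing genes the median was -0.16 in SK-MEL-28 cells and -0.39 in A375, and 0 of 10 passed 1.5-fold in either line. The 6 subunits of the MCM2 to MCM7 helicase were lower in both lines, from -0.39 to -0.10 in SK-MEL-28 cells and from -0.50 to -0.34 in A375. MCM7 had 15111 siNC counts and 11794 siLINC00622 counts in SK-MEL-28 cells and 14936 and 12586 in A375, ratios of -0.39 and -0.46. MCM5 had ratios of -0.32 and -0.50. MCM6 was closest to 0 of the ring in SK-MEL-28, with 7636 and 7269 counts and a ratio of -0.10 (-0.15 to -0.06), and had -0.34 in A375. CDT1, the loading factor, had -0.45 (-0.57 to -0.34) and -0.50 (-0.59 to -0.41). The other loading factors were near 0 in SK-MEL-28. CDC6 had -0.05 (-0.12 to 0.02) there and -0.38 (-0.45 to -0.32) in A375. ORC6 had 0.05 (-0.04 to 0.15) and -0.25 (-0.34 to -0.17). ORC1, the largest subunit of the origin recognition complex, had 1646 siNC counts and 1806 siLINC00622 counts in SK-MEL-28, a ratio of 0.10 (0.01 to 0.20), against 2604 and 2430 counts and -0.31 (-0.39 to -0.23) in A375. It was the 1 member with intervals on opposite sides of 0 in this direction, which 2.55% of genes showed. That 1 of 39 is thus about the share of all genes.

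Helicase activation and fork genes had the lowest median, -0.40 in SK-MEL-28 cells and -0.51 in A375. UHRF1, which binds hemimethylated DNA behind the fork and brings in DNMT1, had 2838 siNC counts and 1574 siLINC00622 counts in SK-MEL-28 cells and 7873 and 5454 in A375. Its ratios were -0.88 (-0.97 to -0.79) and -0.74 (-0.79 to -0.69), changes of -45.7% and -40.1%. MCM10, which activates the loaded helicase, had 1011 and 696 counts in SK-MEL-28 cells and 2613 and 1982 in A375, with ratios of -0.57 (-0.71 to -0.43) and -0.61 (-0.69 to -0.52). CLSPN, the mediator of the replication checkpoint, had -0.55 and -0.59. UHRF1 passed 1.5-fold in both lines, and MCM10 and CLSPN lay just short of it in SK-MEL-28 cells and past it in A375. The GINS subunits were unequal in SK-MEL-28. GINS2 and GINS3 had -0.38 and -0.43 there, while GINS1 had -0.07 (-0.18 to 0.05) and GINS4 had 0.02 (-0.10 to 0.15), with 1032 and 1072 counts. All of the GINS subunits lay between -0.56 and -0.28 in A375. CDC45, their partner on the helicase, had -0.22 and -0.47.

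Of the polymerase, clamp and clamp loader genes, 11 of 11 had intervals below 0 in both lines, with medians of -0.23 and -0.38. LIG1, the ligase that seals Okazaki fragments, had 1731 and 1377 counts in SK-MEL-28 cells and 2002 and 1482 in A375, ratios of -0.36 (-0.46 to -0.26) and -0.64 (-0.74 to -0.55), and was past 1.5-fold in A375. PCNA had 8907 and 7868 counts in SK-MEL-28 cells and 9289 and 8210 in A375, ratios of -0.21 and -0.39. The catalytic subunits POLA1, POLD1 and POLE had -0.19, -0.23 and -0.15 in SK-MEL-28 cells and -0.36, -0.39 and -0.42 in A375. The clamp loader subunits among the members, RFC2 to RFC5, ran from -0.38 to -0.18 in SK-MEL-28 cells and from -0.40 to -0.36 in A375. RFC1, a clamp loader subunit outside the members, lay nearer 0, at -0.10 and -0.16. FEN1 had -0.21 and -0.31. PRIM1, the primase, had the fewest counts of the members in SK-MEL-28, 358 and 267, and the widest interval there, -0.45 (-0.69 to -0.22). In A375 it had 600 and 561 counts and a ratio of -0.31 (-0.48 to -0.14).

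The nucleotide supply genes, 4 of 4, had intervals below 0 in both lines. RRM2, the S-phase subunit of ribonucleotide reductase, had 15249 siNC counts and 10791 siLINC00622 counts in SK-MEL-28 cells and 17874 and 12736 in A375. Its ratios were -0.53 (-0.57 to -0.49) and -0.70 (-0.73 to -0.67), past 1.5-fold in A375. RRM1, the large subunit of the same enzyme, had -0.29 (-0.35 to -0.24) and -0.27 (-0.32 to -0.22), so the subunits differed by more than counting error in both lines. TK1, thymidine kinase, had -0.34 and -0.42. TYMS, thymidylate synthase, had 1219 and 936 counts in SK-MEL-28 cells and 1389 and 1274 in A375, ratios of -0.41 and -0.33. Of its annotated exon bases 39.1% overlap ENOSF1 on the opposite strand, and the library kit is not stated to keep strand, so reads of the genes cannot be told apart. ENOSF1 had ratios of 0.37 and 0.09. The other members share at most 8.94% of exon bases with another listed gene, MCM7 with AP4M1.

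As a share of all library counts, the members took 0.412% (0.409% to 0.414%) with siNC and 0.336% (0.334% to 0.337%) with siLINC00622 in SK-MEL-28. The shares were 0.530% (0.527% to 0.532%) and 0.391% (0.389% to 0.393%) in A375. The change was -18.5% and -26.3%, and by role it was -27.1% and -31.8% for nucleotide supply, -26.4% and -34.1% for helicase activation and fork, -15.0% and -24.8% for licensing, -14.9% and -23.8% for polymerases and clamp, and -17.8% and -16.9% for E2F factors and RB1. Each role took a smaller share with siLINC00622 in both lines.

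**Figure D3:**
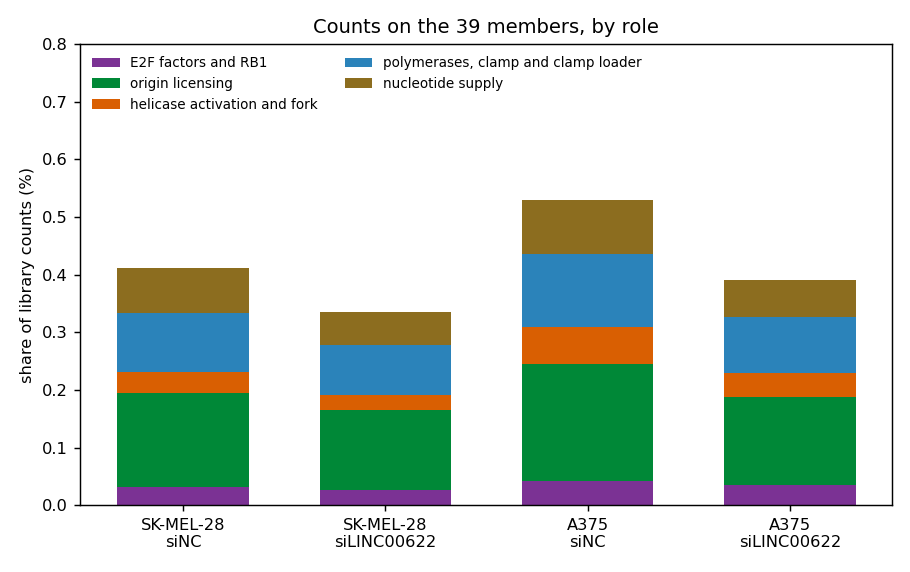
Share of library counts (%, from 0) that fell on the 39 members in each of the 4 libraries, stacked by role. The bars reach 0.412% and 0.336% in SK-MEL-28 cells and 0.530% and 0.391% in A375.

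The members' ratios were then set side by side between the lines, which share no library. Across the 39 members Pearson r was 0.811 and Spearman rho 0.643, against 0.257 and 0.302 across the 14721 genes with counts in both lines, as a description over genes and not replicates. The ratio was lower in A375 for 30 of 39 members, against 47.8% of all genes. Counting intervals of the lines were apart for 19 members. In 18 of them A375 was lower (11.7% of all genes), and in 1, UHRF1, SK-MEL-28 was lower (14.7%). These shares of all genes include genes with fewer counts and wider intervals than the members. The share among genes with as many counts was not computed here. The 18 were E2F1, ORC1, ORC6, CDC6, MCM2 to MCM6, CDC45, GINS1, GINS4, POLA1, POLD1, POLE, PCNA, LIG1 and RRM2. With 1 pair of libraries per line, the difference between the lines was not tested, and it cannot be told apart from a difference between the library pairs.

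**Figure D4:**
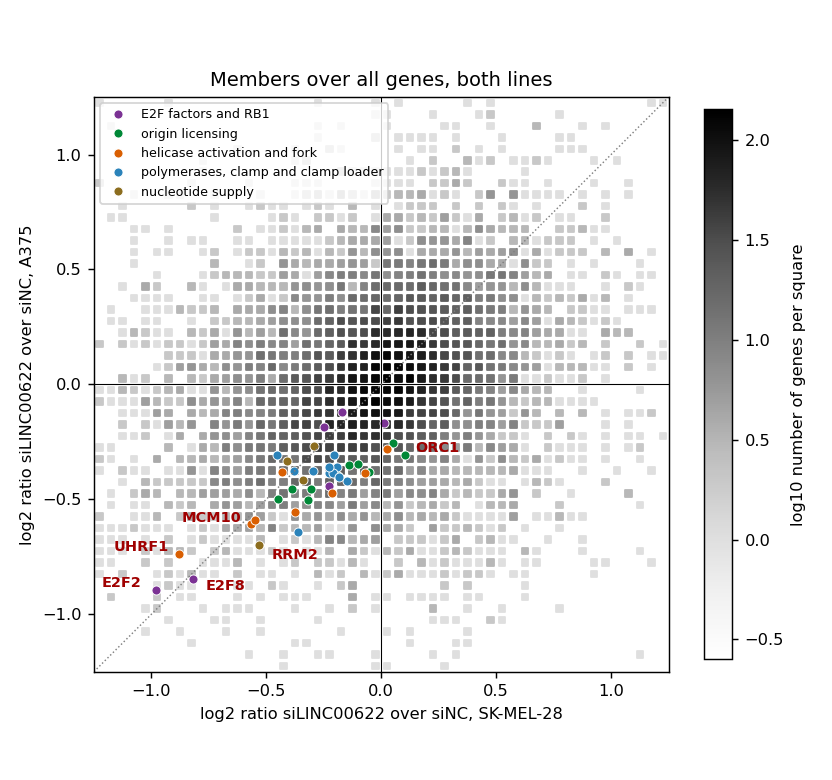
Log2 ratio of siLINC00622 over siNC in SK-MEL-28 (x) and A375 (y). Grey squares count all genes (log10 scale) and coloured points are the members by role; most points lie below the dotted line of equal ratios and left of and below 0, while ORC1 lies right of 0 on the x axis.

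Over both lines the treatment was tested by edgeR's quasi-likelihood test with the cell line as a term, which leaves 1 residual degree of freedom. The estimate was below 0 for 39 of 39 members and for 47.5% of all genes. E2F2 (-0.93 ± 0.11 SE, 2 lines, Benjamini-Hochberg adjusted p = 0.0493) and UHRF1 (-0.80 ± 0.09, adjusted p = 0.0493) passed an adjusted p of 0.05, so 2 of 39 members fell, against 0.148% of 16258 genes. By edgeR 0 of 39 rose, against 0.0800% of genes, and 0 of 39 were higher at an unadjusted p under 0.05, against 7.53%. DESeq2 called 0 of 39 higher, against 0.929% of genes, and limma 0 of 39, against 0.00615%. The shares of genes called higher are small, so 0 of 39 is near them. At an unadjusted p under 0.05, 30 of 39 members were lower, against 7.07% of genes. Next in this fit by adjusted p were RRM2 (-0.60 ± 0.08, adjusted p = 0.0577), E2F8 (-0.83 ± 0.13, 0.0824) and CLSPN (-0.56 ± 0.09, 0.0842). These calls depend on the fit. With counts scaled by library totals, with at least 50 counts required in 1 library, with limma on log2(FPKM + 1) or with no term for the cell line, 0 of 39 members passed, and over the 8 settings the adjusted p of E2F2 ran from 0.00287 to 1 and that of UHRF1 from 4.51e-07 to 1. DESeq2's Wald test called 6 of 39 lower, against 0.996% of genes, adding RRM2, MCM7, CLSPN and MCM10 to the pair. The samples are 2 lines with 1 pair of libraries each. A gene adds 1 residual degree of freedom to 5.43 prior ones taken from all genes. This p thus rests mostly on a spread between the pairs that is shared across genes.

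Between the lines, over both treatments, the same fit asked which members differed in level. Each line has 1 library per condition, so the siNC and siLINC00622 libraries of a line stand in for repeats. The standard errors thus measure the spread left after line and treatment, mostly shared across genes, not that between cultures of a line. SK-MEL-28 was lower in 17 of 39 members (35.1% of genes) and higher in 8 of 39 (33.8%), and 14 did not pass. In this fit the share of members was thus somewhat above that of all genes in the first case and below it in the second. With no term for the treatment it was below in both cases. There 28.2% of members against 31.6% of genes were lower in SK-MEL-28, and 17.9% against 30.8% were higher. MCM2 had 1953 and 1616 counts in SK-MEL-28 cells and 6676 and 5628 in A375, a log2 difference of -1.62 ± 0.09, a level 3.07-fold higher in A375. The log2 difference was -1.46 ± 0.09 for UHRF1, -1.27 ± 0.10 for MCM10, -1.08 ± 0.10 for E2F7 and -0.95 ± 0.09 for MCM4. In the other direction, MCM6 had 7636 and 7269 counts in SK-MEL-28 cells and 4507 and 4103 in A375, a log2 difference of 0.96 ± 0.09, a level 1.95-fold higher in SK-MEL-28. GINS4 was at 0.90 ± 0.12, CDC45 at 0.79 ± 0.11 and MCM5 at 0.69 ± 0.09. Genes of one complex thus lay on both sides, since MCM2 and MCM4 were higher in A375 while MCM3, MCM5 and MCM6 were higher in SK-MEL-28, and MCM7 (0.13 ± 0.08) did not pass and was below 0 under library totals. Scaling by library totals moved the median of all genes by -0.17 log2, and under it 22 members were lower and 6 higher in SK-MEL-28, with 6738 and 4602 of all genes. The directions of MCM2 and MCM6 held in all 8 settings.

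**Figure D5:**
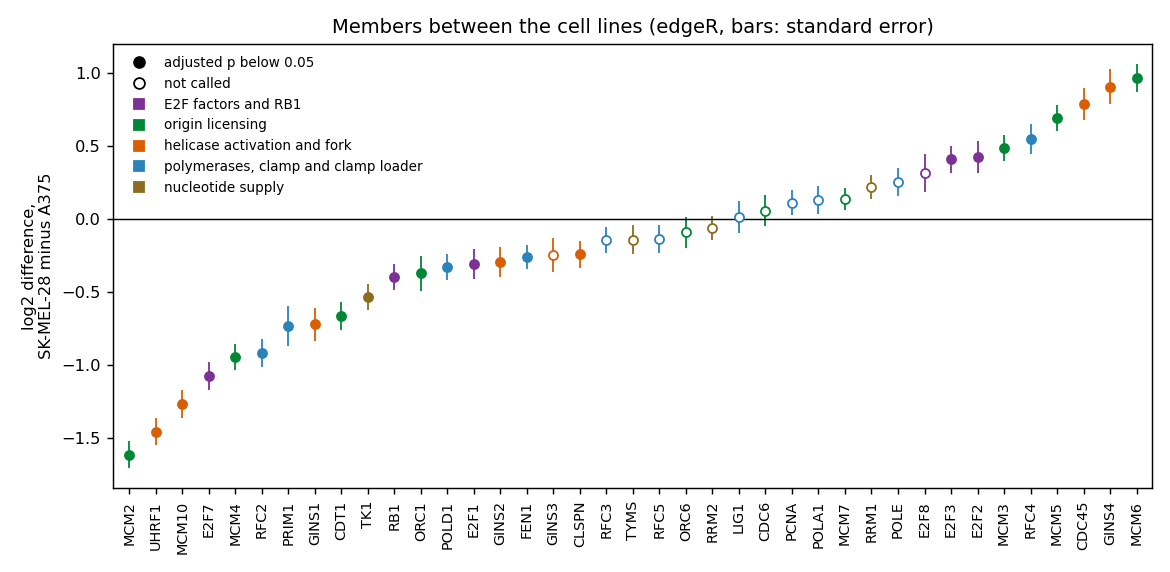
Log2 difference of each member between the lines (SK-MEL-28 minus A375) from edgeR over the 4 libraries, with its standard error, coloured by role. Filled points passed an adjusted p of 0.05 and open points did not; the values run from -1.62 for MCM2 to 0.96 for MCM6.

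Genes around the members were counted from lists by function. Upstream of E2F, CCND1 (cyclin D1, which starts the phosphorylation of RB1) had 35045 siNC counts and 16060 siLINC00622 counts in SK-MEL-28 cells and 27575 and 16963 in A375. Its ratios were -1.16 and -0.91, past 1.5-fold in both lines, and it fell in the fit over both lines (-1.02, adjusted p = 0.0457), with 0 genes called at that threshold when 50 counts were required. CCNE2, a cyclin E and target of E2F, had 675 and 339 counts in SK-MEL-28 cells and 711 and 499 in A375, ratios of -1.02 and -0.72. CCNE1 had -0.07 and -0.14, and the kinases CDK4 and CDK6 had -0.12 and 0.02 in SK-MEL-28 cells and -0.11 and 0.20 in A375. CDKN1A, the inhibitor p21, had 241 and 254 counts in SK-MEL-28, a ratio of 0.04, and 4791 and 8029 in A375, a ratio of 0.54 (0.48 to 0.59). CDKN1B had -0.21 and -0.04. CDKN2A, the inhibitor p16, had 2902 and 3193 counts in SK-MEL-28 cells and 93 and 104 in A375. This list of G1/S cyclins, kinases and inhibitors has 16 genes, of which 15 reached 10 counts in SK-MEL-28 and 14 in A375 (CDKN2B had 7 and 4 counts there). The medians over these were -0.07 and -0.13, with 3 lower and 0 higher past 1.5-fold in SK-MEL-28 cells and 2 and 0 in A375. CDK2 (0.45) and CDC25A (0.25) were at the upper end in SK-MEL-28 cells and CDKN1C (-1.45) at the lower end, while CDKN1C (0.56) was at the upper end in A375.

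Of 13 other E2F, DP and pocket protein genes, 0 passed 1.5-fold in either line, with medians of -0.13 and -0.18. TFDP1, the main partner of E2F in DNA binding, had 5313 and 3689 counts in SK-MEL-28 cells and 13257 and 11534 in A375, ratios of -0.56 and -0.41. E2F6 was near the upper end, with 0.19 and 0.10, and E2F5 near the lower end in SK-MEL-28, with -0.52. The repressor E2F4 had -0.08 and -0.19, and the pocket protein RBL1 had -0.06 and -0.09. RBL2, another pocket protein, had -0.24 and 0.13, and MYBL2, an E2F target and partner of the MuvB complex, had 0.35 and -0.28. The latter genes had intervals on opposite sides of 0 in the lines.

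Of 35 other replication genes, the medians were -0.15 and -0.30, with 1 lower past 1.5-fold in SK-MEL-28, 2 in A375 and 0 higher in either. CHTF18 (-0.69) and RECQL4 (-0.59) were lowest in A375, and POLD3 (-0.56) and DNA2 (-0.45) in SK-MEL-28 among genes with at least 50 counts. At the upper end POLD4 had 0.30 in each line, followed by ORC2 (0.13) in SK-MEL-28 and ORC4 (0.12) in A375. The 22 other E2F-regulated S-phase genes had medians of -0.30 and -0.39, close to those of the members, and 21 of 22 and 22 of 22 had intervals below 0, but 0 passed 1.5-fold in either line. The 17 other nucleotide supply genes had medians of -0.12 and -0.10, and 0 passed 1.5-fold. The 33 listed genes of 34 of G2/M and mitosis had medians of -0.33 and -0.35, with 2 lower past 1.5-fold in SK-MEL-28 cells and 0 in A375. Among them MKI67, a marker of cycling cells, had 19309 and 15710 counts in SK-MEL-28 cells and 24243 and 21659 in A375, ratios of -0.33 and -0.37, and FOXM1, the factor of G2/M transcription, had -0.17 and -0.29. The medians of the genes of mitosis were thus close to those of the members. In all of these lists 1 gene, CCND1, passed the test over both lines. The genes outside the members whose pair of ratios lay nearest to the members' median by Euclidean distance, with 50 or more counts in each library, were FANCI (-0.25 and -0.39), ERFE (-0.25 and -0.39) and NASP (-0.24 and -0.37).

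Last, the ratios were set beside sequence features. Members with an E2F word in the window had medians of -0.28 and -0.41 (20 genes), and those without one had -0.23 and -0.38 (15 genes). With a word the ratios ran from -0.98 to -0.05 in SK-MEL-28 cells and from -0.90 to -0.19 in A375. Without one they ran from -0.57 to 0.10 and from -0.70 to -0.12. The value of -0.12 is that of RB1, whose window was not checked against its main start. The difference between these sets was not tested. Of the members past 1.5-fold, E2F2, UHRF1, CLSPN and LIG1 held an E2F word, RRM2 and MCM10 held none, and E2F8 had no window. The siRNA can pair through its seed with other transcripts, so matches to the seeds of both designed siRNAs were counted in the longest annotated 3′ UTR (GENCODE 29). The target sequences are shown with the bases that pair with guide positions 2 to 8 in capitals.

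siLINC00622_1: ccctaaagaaaGTGAGAAa

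siLINC00622_2: ggcaacctctaATTGACTt

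Of the 39 members 8 held a site for either seed (20.5%), against 25.6% of 11812 genes. The median length of these 3′ UTRs was 1175 bases in the members and 1655 in the 11812 genes. The shares and medians with and without a site were not matched for length. E2F3, POLE, RFC2, RRM2 and UHRF1 held one for siLINC00622_1 and CDC6, GINS1 and RB1 one for siLINC00622_2. For siLINC00622_1 the medians of the 5 members with a site were -0.38 and -0.42, against -0.23 and -0.39 without one. For siLINC00622_2 those of the 3 with a site were -0.07 and -0.38, against -0.29 and -0.39. With both siRNAs pooled the medians were -0.21 and -0.38 with a site and -0.29 and -0.39 without, so the order differed between the siRNAs. Over all 11812 genes those with either site had medians of -0.067 and -0.016, against 0.0060 and 0.019. E2F2, E2F8, MCM10, CLSPN and LIG1 held no site, while UHRF1 and RRM2 held one, and whether it bears on their values was not tested.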

How the data were processed

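RNA-Seq libraries of both cell lines were grouped by the line and treatment in their labels, 1 library per condition. Paired-end reads of poly(A) RNA were taken. HISAT2, HISAT, TopHat2, Bowtie2 and the build hg19 stand in the submitters' processing notes without roles or versions, while 17535 identifiers are Ensembl genes and 220 begin with MSTRG, so the build of the table was not settled; the counting tool is not given in the sources used here. The authors deposited whole-number counts per gene without normalization. CPM values that the authors deposited are the same counts scaled to the library total, and gave that total. FPKM values, deposited by the authors, take account of gene length and depth. TPM values deposited by the authors were used as an alternative scale alone.

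Per line, log2 ratios used TMM factors of edgeR 4.0.16 (R 4.3.3), a prior count of 2 and genes with at least 10 counts in 1 of 2 libraries, called past 1.5-fold. Intervals are 95% Clopper-Pearson limits, and reads without molecular identifiers make them cover counting error only. The test over 4 libraries was edgeR's quasi-likelihood test (glmQLFit, glmQLFTest) on 16258 genes with terms for line and treatment, adjusted by Benjamini-Hochberg over all of them, called at 0.05. The prior degrees of freedom were 5.43 and the common dispersion 0.00895. Nothing in the labels says that libraries came from separate cultures beyond the 4 conditions. The members and the lists of other genes were chosen with earlier results of these data known. All members are named. Of other lists at most the 2 highest and 2 lowest ratios per line with at least 50 counts are, plus a set listed by name (regulators upstream of E2F, its partners, and MYBL2, FOXM1 and MKI67). RFC1 was added afterwards, as a clamp loader subunit outside the members. Alternatives covered the scaling, the prior count, filters, the fold, deposited FPKM and TPM, DESeq2 1.42.0, limma 3.58.1 and the model terms. Backgrounds limited to genes with as many counts as the members and to windows rich in GC were added after seeing the data. Sequences are from RefSeq (GRCh38.p14), 3′ UTRs from GENCODE 29, and siRNA targets from the study's supplement. Other work used Python 3.11.15.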

Additional observations from a re-analysis of the deposited data

Results flagged for a closer look

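ORC1 was singled out because its counting intervals lay on opposite sides of 0 in the lines, at a log2 ratio of 0.10 (0.01 to 0.20) in SK-MEL-28 cells and -0.31 (-0.39 to -0.23) in A375 cells. Of all genes 2.55% had such intervals in this direction, about the share of 1 in 39 members. MYBL2 showed the same direction at 0.35 in SK-MEL-28 cells and -0.28 in A375, with 2161 and 2820 counts in the former line and 9264 and 8829 in the latter. RBL2 went the other way, at -0.24 in SK-MEL-28 cells and 0.13 in A375. The difference between the lines was not tested for any of them, since each line has 1 library per condition.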

How the results depend on the processing

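The median log2 ratio of the members stayed between -0.27 and -0.24 in SK-MEL-28 cells and between -0.40 and -0.38 in A375 over the planned scalings, prior counts and filters. The number of members lower past the fold moved with the fold: with a fold of 0.32 on the log2 scale it was 15 for SK-MEL-28 (16.0% of all genes) and 30 for A375 (13.04%), and at 2-fold 0 (1.72%) and 0 (0.836%). It was 4 in A375 with FPKM and a pseudocount of 1 (1.07%). As the sum of deposited TPM, the members took 0.392% and 0.322% in SK-MEL-28 cells and 0.526% and 0.395% in A375.

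In the fit of the treatment (24 genes lower, 13 higher, 2 members lower), DESeq2 size factors gave 23 genes higher. Without a filter there were 64 genes lower, 57 higher and 4 members lower, and DESeq2's Wald test gave 162, 151 and 6. Library totals gave 0 genes lower, 1 higher and 0 members, and so did limma on log2(FPKM + 1), with 32 and 31 members lower at an unadjusted p under 0.05 (7.94% and 7.90% of genes). Requiring 50 counts in 1 library gave 0, 0 and 0, with 30 members at that unadjusted p (7.56% of genes). With no term for the cell line the counts were 0, 0 and 0, and 0 members at an unadjusted p under 0.05 (0.123% of genes). The cause of these shifts was not tested.

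Between the lines, 11 members in place of 17 were lower in SK-MEL-28 with no term for the treatment (31.6% of genes, in place of 35.1%). No member that passed changed direction under these settings. With 1 library per condition, leaving out a library leaves no residual degree of freedom, so it was not run, and an interaction of line and treatment could not be fitted. The fit of the treatment is paired by cell line, and the labels carry no replicate numbers for a further pairing.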
